A study of Mus musculus with 2 samples.

Results

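The 6 counted miRNA genes of the mouse Hox clusters, Mir10a, Mir10b, Mir196a-1, Mir196a-2, Mir196b and Mir615, were examined in the embryonic forebrain. They were taken by name from the 1973 annotated miRNA genes counted in each library, by a rule on names and position alone. The tissue was forebrain of the mouse strain B6NCrl at embryonic day 14.5, untreated, with no second tissue, age or genotype to compare. Small RNA of a size range labelled as under 30 was sequenced in 2 libraries, named biological replicates 1 and 2. Each is labelled as the forebrain of a single pup and also as pooled male and female, both carry 1 donor identifier, and their collection days differ, so the spread between them may be partly technical.

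Hox genes encode transcription factors that give positional identity along the body axis. In the vertebrate nervous system they are known for expression from the hindbrain to the spinal cord, and the forebrain lies in front of that domain. The miR-10 and miR-196 miRNAs embedded in these clusters are known to be transcribed with neighbouring Hox genes and to target Hox transcripts. A miRNA pairs with its targets mainly through its seed, here bases 2 to 8 counted from the 5′ end, so miRNAs with 1 seed share many predicted targets.

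By seed, the 5′ arms of the miR-10 genes form 1 group, those of the miR-196 genes another, and miR-615 stands alone. RefSeq (build GRCm38.p6) held mature entries for all 6 genes, and the 5′ arms of the miR-10 and miR-196 genes with both arms of miR-615 are shown because the grouping rests on them. Capitals mark the seed.
miR-10a-5p: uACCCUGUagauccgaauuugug
miR-10b-5p: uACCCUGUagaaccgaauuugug
miR-196a-5p: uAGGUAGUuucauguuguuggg
miR-196b-5p: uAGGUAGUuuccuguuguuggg
miR-615-3p: uCCGAGCCugggucucccucuu
miR-615-5p: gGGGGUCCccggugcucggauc
Both miR-10 5′ arms are 23 nt long and carry the seed ACCCUGU, which no other mature mouse miRNA in the RefSeq table has. They differ by 1 substitution, U12A (miR-10a-5p base first, positions from 1 at the 5′ end). The miR-196 5′ arms are 22 nt long, carry the seed AGGUAGU and differ by A12C (miR-196a-5p base first). Neither substitution touches the seed. No other mature miRNA in the table has the seed of miR-615-3p or of miR-615-5p.

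Whether a gene can be counted depends on these sequences, since the files hold reads that matched several places in a multi-mapping total apart from the genes. The mature miR-196a-5p is present in full in 2 hairpins, Mir196a-1 and Mir196a-2, whose longest common stretch of 22 nt is the mature miRNA itself, in capitals below.
Mir196a-1 hairpin: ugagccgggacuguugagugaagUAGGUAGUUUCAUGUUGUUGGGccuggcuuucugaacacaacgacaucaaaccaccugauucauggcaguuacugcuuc
Mir196a-2 hairpin: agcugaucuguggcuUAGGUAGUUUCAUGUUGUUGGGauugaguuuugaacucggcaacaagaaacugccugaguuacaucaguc
Its flanking bases, before and after, are G and C in the Mir196a-1 hairpin and U and A in that of Mir196a-2. A read of exactly miR-196a-5p therefore fits both genes, and only reads that reach past it, or reads of the 3′ arms, can be told apart. For Mir10a and Mir10b the longest stretch shared with any other annotated miRNA hairpin was 15 nt, for Mir615 14 nt and for Mir196b 12 nt. Their mature sequences each occurred in 1 annotated hairpin. The 2 miR-10 hairpins are printed with both mature arms in capitals. Their 5′ arms are nearly the same, and the bases before these arms match over the whole 5′ flank of Mir10b. The stretches between the arms and the lengths differ.
Mir10a hairpin: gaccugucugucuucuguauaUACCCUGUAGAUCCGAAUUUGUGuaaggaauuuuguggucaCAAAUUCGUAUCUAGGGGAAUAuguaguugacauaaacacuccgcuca
Mir10b hairpin: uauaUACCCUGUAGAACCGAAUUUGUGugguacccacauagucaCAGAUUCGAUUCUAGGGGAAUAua

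The miR-10 genes lie at matching places in different clusters, as do the miR-196 genes. Mir615 has no such counterpart among the counted genes. Mir10a (ENSMUSG00000065519.1) is at chr11:96317165-96317274 on the plus strand of mm10, between Hoxb5 and Hoxb4. It overlaps no other annotated gene and ends 993 bases before the annotated start of Hoxb4. Mir10b (ENSMUSG00000065500.2) is at chr2:74726070-74726137 on the plus strand, in introns of 2 of the 3 Hoxd4 transcripts and of 1 of the 6 Hoxd3 transcripts. Mir196a-1 (ENSMUSG00000065546.1) is intergenic at chr11:96265164-96265265 on the plus strand, 6192 bases before Hoxb9. Mir196a-2 (ENSMUSG00000065488.1) is at chr15:102973350-102973434 on the plus strand, 1457 bases after Hoxc10 and 3005 before Hoxc9, and in an intron of 1 long Hoxc5 transcript. Mir196b (ENSMUSG00000065443.1) is at chr6:52230081-52230165 on the minus strand, within Hoxa9. There it overlaps exons of 2 non-coding Hoxa9 transcripts and an intron of 1 more. Mir615 (ENSMUSG00000076010.1) is at chr15:103014910-103015001 (plus strand), where both annotated Hoxc5 transcripts have an intron. Within 50 kb of the outermost Hox genes of the 4 clusters, no other miRNA gene of the count tables was found. The annotation held 7 miRNA genes there, and 1 of the 2 at HoxD was not among the counted genes.

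**Figure D1:**
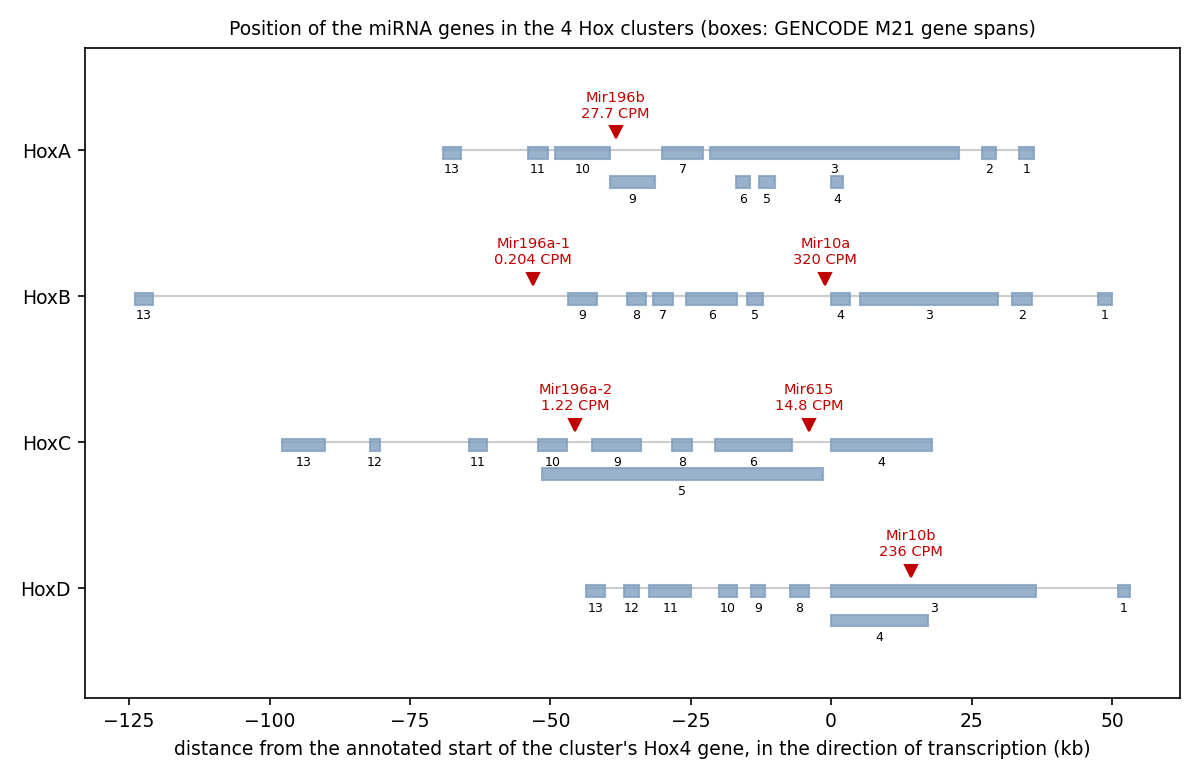
Positions of the miRNA genes (red triangles, with the mean CPM of 2 libraries) and of the Hox genes (blue boxes, numbered by paralogue group, spread over rows where annotated spans overlap) in the 4 Hox clusters. The horizontal axis is the distance in kb from the annotated start of each cluster's Hox4 gene in the direction of transcription. Mir10a, at 320 CPM, and Mir10b, at 236 CPM, lie near the Hox4 genes, and so does Mir615, at 14.8 CPM. The miR-196 genes lie near the Hox9 genes, with Mir196b at 27.7 CPM. The values of Mir196a-1 and Mir196a-2 leave out reads of exactly miR-196a-5p and give no level for that miRNA.

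The libraries held 7080317 and 7946585 counts on the strand of miRNA genes, which makes 1 count worth 0.141 and 0.126 counts per 1000000 (CPM). Multi-mapping reads made up 42.7% ± 0.822 of all reads (SD, n = 2), and the part of them that comes from miR-196a-5p was not tested. The neural list (Mir137, Mir153, Mir7b, Mir92b and Mir9-3) was detected in all 5 genes, with 16006 and 14144 CPM in replicates 1 and 2. Among non-neural markers, the endothelial Mir126a stood at 22103 and 22365 CPM, and the striated muscle list at 25.4 and 18.9 CPM over 8 genes. Of that last list Mir1a-1, Mir133a-1 and Mir133a-2 had no count, and each shares 20 nt or more with another hairpin. The smooth muscle or stromal list summed to 3690 and 4109 CPM, and the liver Mir122 to 10.3 and 10.2 CPM. Mir9-3 of the neural list and Mir199a-1, Mir199a-2 and Mir199b of the stromal list share 20 nt or more with another hairpin as well. The neural and stromal sums can therefore leave out mature reads, and the sums do not rank the cell types. In tissue libraries such as these, fewer cells of a type and less RNA per cell cannot be told apart.

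The miR-10 genes held most of the counts of the 6 genes, and Mir196b and Mir615 stood well below them. The counts of Mir196a-1 and Mir196a-2 leave out reads of exactly miR-196a-5p and give no level for that miRNA. Of the 6 genes, 4 were detected, meaning 10 or more counts in both libraries, against 399 of all 1973. Together the 6 genes held 3749 counts in replicate 1 and 5318 in replicate 2, or 529.5 and 669 CPM. Of these counts the miR-10 pair made up 92.6% ± 0.684, the 3 miR-196 genes 4.88% ± 0.195 and Mir615 2.51% ± 0.489 (SD, n = 2).

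Mir10a, the HoxB gene next to Hoxb4, was the highest of the 6. It had 1918 counts in replicate 1 and 2930 in replicate 2, or 271 CPM with an exact 95% interval of 259 to 283, and 369 CPM with an interval of 355 to 382. Its mean was 320 ± 69.2 CPM (SD, n = 2). The 2 intervals did not overlap, so the difference between the libraries was larger than counting error. Among detected genes Mir10a had rank 126 by mean CPM, between Mirlet7c-1 at 339 ± 18.9 CPM and Mir669o at 301 ± 30.5 CPM (SD, n = 2), and the ranges of both overlapped its own. Both neighbours share 20 nt or more with other hairpins, so their counts can leave out mature reads and are no like-for-like reference. Intervals here and below cover counting error only, as the labels name no molecular identifiers and copies made by PCR are counted as separate reads.

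Mir10b, the HoxD counterpart with the same seed, stood below it in both libraries. It had 1536 and 2021 counts, or 217 CPM (206 to 228) in replicate 1 and 254 CPM (243 to 266) in replicate 2, with a mean of 236 ± 26.4 CPM (SD, n = 2). Its higher library lay below the lower library of Mir10a, so the 2 genes did not overlap on this scale. With median-of-ratios scaling they did, at 261 CPM for Mir10a in replicate 1 and 264 CPM for Mir10b in replicate 2, while Mir10a stayed the higher within each library. Mir10b had rank 143, next to Mir129-2 at 237 ± 1.64 CPM and Mirlet7a-1 at 234 ± 25.7 CPM (SD, n = 2), from which it did not differ beyond the spread between the libraries. These neighbours, too, share 20 nt or more with other hairpins.

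The balance within the miR-10 pair was uneven in both libraries. Mir10a made up 55.5% of the pair's counts in replicate 1 (exact 95% interval 53.9% to 57.2%) and 59.2% in replicate 2 (57.8% to 60.6%). The ratio of Mir10a to Mir10b was thus 1.25 (1.17 to 1.34) and 1.45 (1.37 to 1.54), with a mean of 1.35 ± 0.142 (SD, n = 2). Both intervals lay above 1, and they did not overlap each other. The mature 5′ arms have the same length, so a value per base of mature miRNA keeps this order. The hairpins are 110 nt for Mir10a and 68 nt for Mir10b, and per 100 nt of hairpin the order turned, with 246 and 335 CPM for Mir10a against 319 and 374 CPM for Mir10b in replicates 1 and 2. The counts do not separate the 5′ and 3′ arms of either gene.

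Mir196b of the HoxA cluster was the only miR-196 gene detected. It had 175 and 244 counts, or 24.7 CPM (21.2 to 28.7) and 30.7 CPM (27.0 to 34.8), with a mean of 27.7 ± 4.23 CPM (SD, n = 2). Both libraries lay far below both miR-10 genes, and the ratio of Mir10b to Mir196b counts was 8.78 and 8.28 in replicates 1 and 2. By mean CPM it had rank 255, between Mir205 at 28.7 ± 3.0 CPM and Mir493 at 27.7 ± 4.61 CPM (SD, n = 2), with overlapping ranges.

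The miR-196a genes were close to the limit of the counts. Mir196a-2 had 11 and 7 counts, or 1.55 CPM (0.776 to 2.78) in replicate 1 and 0.881 CPM (0.354 to 1.82) in replicate 2. Mir196a-1 had 2 counts and 1 count, under the floor of 3 counts, which equals 0.424 and 0.378 CPM. Reads of exactly miR-196a-5p match both genes along the 22 nt printed above, so the counts of the genes do not hold them. The level of miR-196a in these forebrains therefore cannot be read from the gene counts, and its order relative to miR-196b cannot be given.

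Mir615 in the Hoxc5 intron had 107 and 115 counts. These were 15.1 CPM (12.4 to 18.3) and 14.5 CPM (11.9 to 17.4), with a mean of 14.8 ± 0.453 CPM (SD, n = 2). The 2 libraries overlapped, and both lay below the lower Mir196b library, whose count was 1.64 times and 2.12 times that of Mir615 in replicates 1 and 2. The counting intervals of Mir615 and Mir196b did not overlap within either library. Its rank was 280, between Mir1968 at 15.4 ± 1.44 CPM and Mir574 at 14.5 ± 1.84 CPM (SD, n = 2), and their ranges overlapped that of Mir615.

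**Figure D2:**
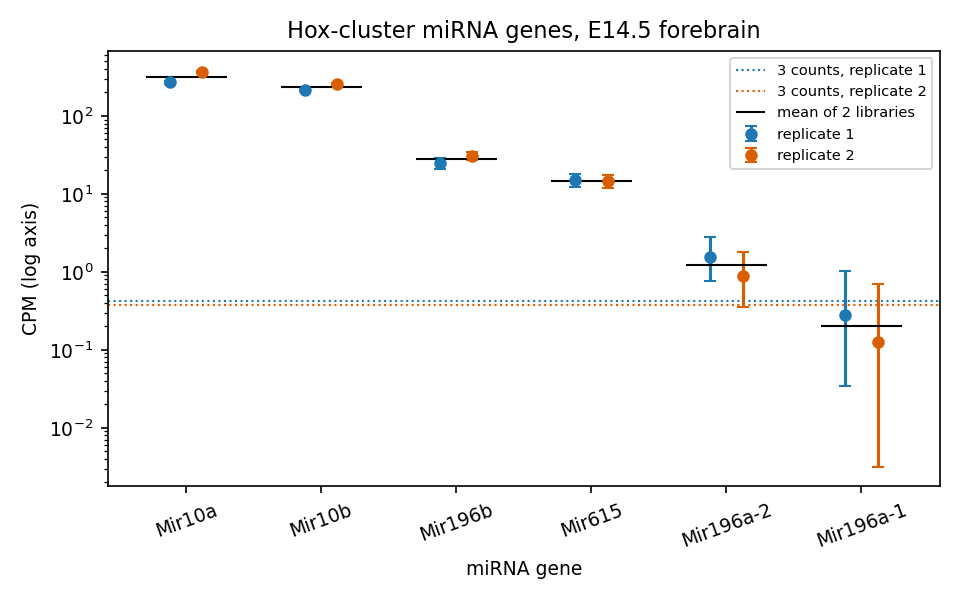
Level of each Hox-cluster miRNA gene in CPM (log axis) in replicate 1 (blue) and replicate 2 (orange), with exact 95% counting intervals, the mean of the 2 libraries (black line) and the level of 3 counts in each library (dotted, in its colour). Mir10a and Mir10b lie above 200 CPM, Mir196b and Mir615 between 14.5 and 30.7 CPM, and Mir196a-1 lies under the level of 3 counts.

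The order by CPM was Mir10a, Mir10b, Mir196b and Mir615. No library of one overlapped a library of the next, except for Mir10a and Mir10b under median-of-ratios scaling. Per 100 nt of hairpin, Mir10b came before Mir10a, and the libraries of these genes overlapped. Genes of 1 cluster differed in level. HoxB held both the highest gene, Mir10a, and the lowest, Mir196a-1, although the count of the latter leaves out its mature miR-196a-5p reads. The 2 HoxC genes together held 118 and 122 counts. Counts on the strand opposite to the 6 genes came to 2 in both libraries together, 1 at Mir10a and 1 at Mir196a-2.

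Relatives of miR-10 outside the Hox clusters had far higher counts, and counts of different miRNAs were not calibrated to amounts of RNA. The miR-99 and miR-100 genes, which have no place in a Hox cluster, encode miRNAs that resemble miR-10 along their length but have another seed, and 2 of their sequences are printed to show this, with the seed in capitals.
miR-100-5p: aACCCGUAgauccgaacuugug
miR-99a-5p: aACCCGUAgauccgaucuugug
Their shared seed is ACCCGUA, where miR-10 has ACCCUGU. The miR-10a-5p sequence is 3 edits (single-base changes, insertions or deletions) from miR-100-5p and 4 from miR-99a-5p, and miR-10b-5p is 4 and 5 edits from them. Mir99a stood at 284226 and 317936 CPM, 1049 times and 862 times the Mir10a count in replicates 1 and 2. Mir100 stood at 31530 and 37285 CPM, 116 times and 101 times the Mir10a count. Mir99b stood at 23438 and 23584 CPM. All 3 relatives were thus above both miR-10 genes in both libraries.

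**Figure D3:**
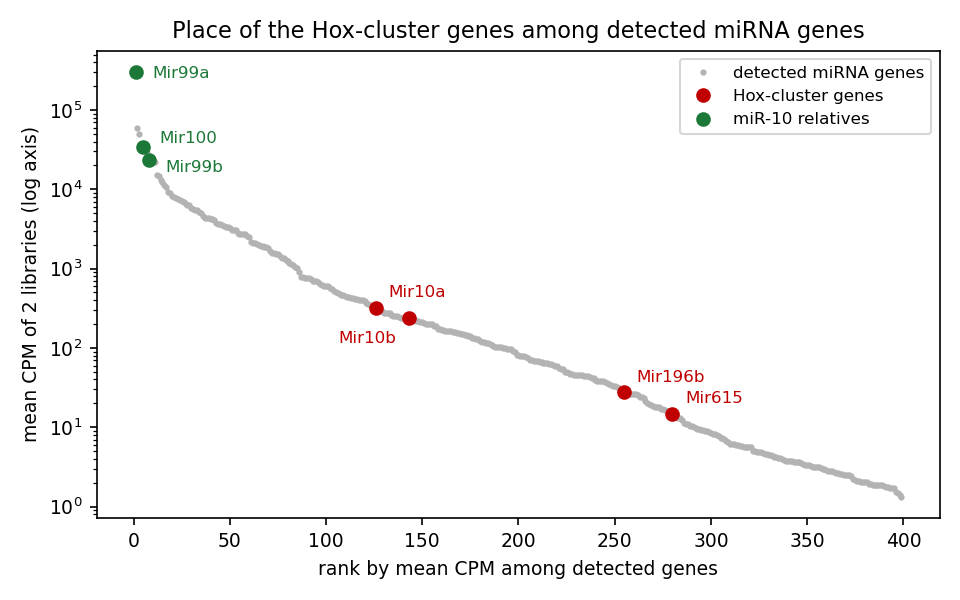
Mean CPM of the 2 libraries (log axis) of the 399 detected miRNA genes against their rank, with the detected Hox-cluster genes in red and Mir99a, Mir100 and Mir99b in green. The red points sit at ranks 126, 143, 255 and 280, and the green points stand near the top, with Mir99a at 301081 CPM.

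The miR-196 seed is also found in let-7, offset by 1 base. AGGUAGU stands at bases 3 to 9 of 8 of the 9 mature 5′ sequences of let-7 and miR-98, among them let-7g-5p, printed as the example with these bases in capitals.
let-7g-5p: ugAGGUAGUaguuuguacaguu
In let-7e-5p these letters do not occur. The 10 counted let-7 and miR-98 genes held 130642 and 133150 CPM in replicates 1 and 2, and the 3 miR-196 genes 26.6 and 31.7 CPM. Neither sum is a family level. Reads of exactly miR-196a-5p are missing from the miR-196 sum. The let-7 sum can miss mature reads of Mirlet7a-1, Mirlet7a-2, Mirlet7c-1, Mirlet7c-2 and Mirlet7f-2. For each of these, a stretch of at least 20 nt also occurs in some other hairpin. The seeds proper of let-7 and miR-196 differ by the offset of 1 base, so the 2 families are not the same by the seed grouping used above.

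Between the libraries, the miR-10 genes differed by more than counting error and by less than 1.5-fold. Each gene was set against the remaining miRNA counts with Fisher's exact test (two-sided), adjusted by Benjamini-Hochberg over 445 genes that reached 10 counts in at least 1 library. The test compares the 2 libraries, not conditions, and takes in counting error alone. Of the 445 genes, 213 were called (47.9%), and 16.6% were called as higher in replicate 2. Of the 5 Hox-cluster genes that could be tested, 2 were called, which is near the 47.9% of all genes. Both were higher in replicate 2, and nothing is read from that direction in so few genes.

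Mir10a CPM was 1.36 times as high in replicate 2 as in replicate 1 (exact 95% interval 1.28 to 1.44, Fisher's exact test, adjusted p = 2.42e-25). The ratio of Mir10b was 1.17 (1.10 to 1.25, Fisher's exact test, adjusted p = 8.12e-06). Mir196b had a ratio of 1.24 (1.02 to 1.52) that did not pass (Fisher's exact test, adjusted p = 0.0628), although it passed in 4 of 6 alternative settings, with an adjusted p from 0.00891 to 0.276 over the 6. Mir615, at 0.958 (0.730 to 1.26), and Mir196a-2, at 0.567 (0.186 to 1.60), did not pass either (Fisher's exact test, adjusted p = 0.881 and 0.359). For these last genes a change of the size seen in Mir10b lies within the interval, so it was not detectable at this depth. Mir196a-1 had too few counts to be tested. Its ratio was 0.445, with an interval of 0.00755 to 8.56.

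No Hox-cluster gene was called with at least a 2-fold difference in Fisher's exact test, against 3.82% of all genes tested, and 3 of the 5 had an unadjusted p under 0.05, beside 228 of all 445. The median fold between the libraries was 1.17 over the 399 detected genes, and 1.16 over the 206 of them at a mean of 10 to 1000 CPM. Mir10a was farther apart than most, with 83 of the 399 at the same or a larger fold and 29 at the same or a higher ratio toward replicate 2. Mir10b was at the median, with 200 of the 399 at the same or a larger fold. The median log2 ratio of the 4 detected Hox-cluster genes was 0.27, beside -0.09 over the 399 detected genes.

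**Figure D4:**
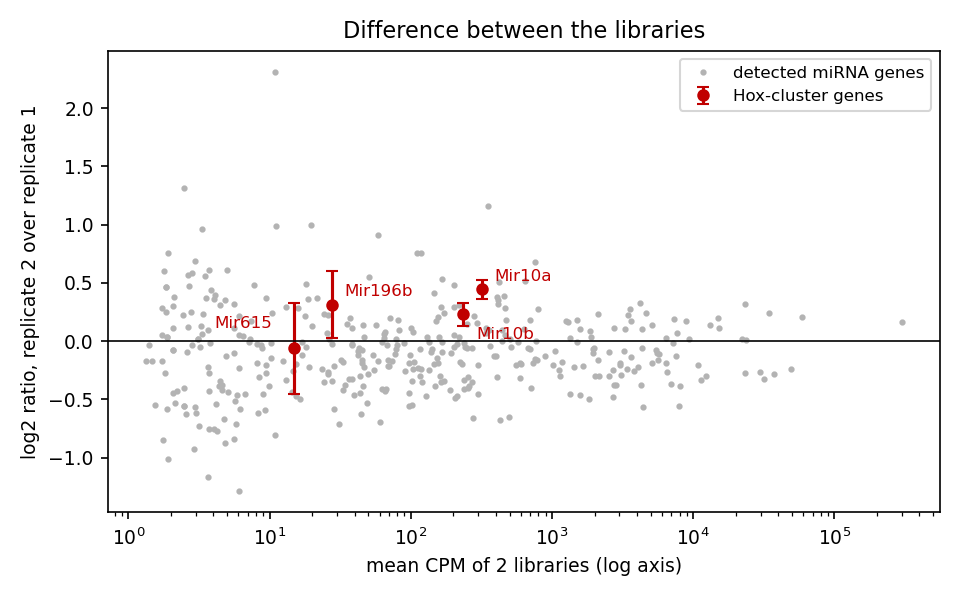
Log2 ratio of CPM, replicate 2 over replicate 1, against mean CPM of 2 libraries (log axis) for the 399 detected genes (grey) and the 4 detected Hox-cluster genes (red, with exact 95% counting intervals). Mir10a at 0.44, Mir10b at 0.23 and Mir196b at 0.31 lie above 0 with their intervals, and the interval of Mir615 includes 0.

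Scaling moved these ratios in 1 direction. Factors by the trimmed mean of M-values (TMM), median-of-ratios factors and totals that leave out Mir99a shifted the median log2 ratio of detected genes up by 0.08, 0.11 and 0.07. The split of called genes, 74 higher and 139 lower in replicate 2, became 93 and 101, 102 and 92, and 89 and 106 under these settings. Over the 6 alternatives the ratio of Mir10a ranged from 1.36 to 1.47 and that of Mir10b from 1.17 to 1.27, and both were called in all 6. The ratio of Mir615 crossed 1, so no direction is given for it.

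Some markers of other cell types also differed between the libraries, as did 47.9% of all genes tested. The epithelial list was called higher in replicate 2 for 6 of 7 genes, beside 74 of all 445 (16.6%). Its sums were 1616 and 2147 CPM, a ratio of 1.33. The remaining gene, Mir205, had a ratio of 0.862 and was not called (Fisher's exact test, adjusted p = 0.223). The erythroid Mir451a had a ratio of 1.31, at 396 and 518 CPM, and Mir144 one of 4.97, at 26 and 145 counts. The erythroid list also named Mir486a and Mir486b, and no gene was counted under these names. Mir486, which is not in the summed erythroid ratio, had 40 and 52 counts and a ratio of 1.16. It was not called (Fisher's exact test, adjusted p = 0.643). The 5 genes of the neural list were all called lower in replicate 2, with a summed ratio of 0.884, beside 139 of all 445 genes called lower. Other miRNA genes known from neurons, named after their values were seen, went the other way, with ratios of 1.60 for Mir128-1, 1.43 for Mir128-2 and 1.43 for Mir132, so the list does not stand for neural miRNAs at large. The endothelial Mir126a had a ratio of 1.01. The immune list had a summed ratio of 1.03 with 0 of 3 genes called by Fisher's exact test. For the smooth muscle or stromal list the summed ratio was 1.11, with 1 of 5 tested genes called higher in replicate 2. For the striated muscle list it was 0.742, with 1 of 3 tested genes called lower. The liver Mir122 had a ratio of 0.989 and was not called. Under 4 other scalings the summed ratio of the neural list stayed below 1, at 0.954 or less, and the summed epithelial and erythroid ratios stayed above it. The summed ratio of the 6 Hox-cluster genes was 1.26. The part of these cell types in the miR-10 difference was not tested. Collection day and library coincide, so their parts in it cannot be told apart.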

How the data were processed

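The authors made read counts per miRNA gene from 1 alignment file per library, on mm10 with annotation M4, per the README in each sample's deposit. No aligner or counter is given in the sources used here. The value columns are unnamed, and were read as either strand, the gene's strand and the opposite strand, since the first was the sum of the others for every gene. The deposited counts on the gene's strand were used unchanged and scaled here to CPM, per 1000000 miRNA gene counts. Unmapped reads (16.8% ± 0.325), multi-mapping reads (42.7% ± 0.822) and reads with no gene on their strand (2.21% ± 0.189 of all reads, SD, n = 2) name no gene and were left out. Of 1973 gene IDs, 1894 matched GENCODE M21, which gave names, positions, hairpin lengths and shared stretches, and version suffixes were ignored. Mir10b and Mir196a-2 carry another version there.

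Sequences came from RefSeq on GRCm38.p6, which has mature entries for 6 of 6 members and hairpin entries for 5. Copies of a mature sequence were searched in annotated hairpins, not in a genome. The design allows no edgeR test, since 1 group of 2 libraries has no contrast, so Fisher's exact test was run with scipy 1.17.1. It was tried on simulated counts that held counting error and planted 2-fold changes, with no other spread between libraries. That trial says nothing of the test where libraries differ by more than counting error, as these do. The TMM factors came from edgeR 4.0.16. A chi-square of 91022 over 445 genes (444 degrees of freedom) put the libraries apart by more than counting noise, so they are not 1 library deposited in duplicate. It does not show that they came from separate animals, and n = 2 counts libraries.

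Members and lists were chosen with earlier results of these data known. Named genes are the 6 members, the miR-99, miR-100 and let-7 relatives, the gene next above and below each detected member in mean CPM, and marker lists (neural, endothelial, smooth muscle or stromal, erythroid, immune, epithelial, striated muscle, liver). Single genes of the marker lists and of the let-7 family, neuronal genes outside the lists and Mir486 were named after their values were seen. Alternatives covered strand, scaling, length, count minimum, fold and left-out libraries.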

Additional observations from a re-analysis of the deposited data

How the results depend on the processing

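Levels moved with the denominator by construction, since totals without Mir99a are smaller and all reads are more than miRNA counts. Without Mir99a in the totals the levels were 460 CPM for Mir10a, 338 for Mir10b, 39.8 for Mir196b, 21.2 for Mir615 and 1.73 for Mir196a-2, and the summed share of the 6 genes was 0.0860%. Per 1000000 of all reads they were 123, 90.3, 10.6, 5.66 and 0.465, with 0.0780 for Mir196a-1 and a share of 0.0230%. The main share was 0.0599%. Mir196b passed Fisher's exact test at a ratio of 1.31 with TMM, 1.34 with median-of-ratios factors, 1.30 without Mir99a and 1.26 per all reads. Mir615 turned to 1.01, 1.03 and 1.00 under the first 3 of these, and was called in none. Of all genes, 17 were called with at least 2-fold, 7 with no filter on low counts and 34 with 1.5-fold. For 1044 genes no stretch of 20 nt shared with another hairpin was found, and these include IDs that had no hairpin sequence to search. Ranks among them were 98 for Mir10a, 111 for Mir10b, 196 for Mir196b and 216 for Mir615. Without replicate 1 or replicate 2 the level is that of the other library, from 271 to 369 CPM for Mir10a and from 0.126 to 0.282 for Mir196a-1 beside a mean of 0.204, which by construction says nothing of stability. Per 100 nt of hairpin Mir10b took place 1 and Mir10a place 2. No paired analysis was possible because the libraries form 1 group. A single group of 2 libraries gives a coarse SD, and no genome search for mature sequences was run.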
